A study of Homo sapiens with 6 samples.

Results

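The cyclins and cyclin-dependent kinases (CDKs) of the cell division cycle were followed in P493-6 cells, a human B-cell line labelled as B-cell lymphoma, in which tetracycline represses a c-Myc transgene until the block is lifted. The 10 genes are the D-type cyclins CCND2 and CCND3, the E-type cyclins CCNE1 and CCNE2, cyclin A2 (CCNA2), cyclin B1 (CCNB1), and the kinases CDK1, CDK2, CDK4 and CDK6, taken by their symbols from the 18244 genes with a probe set of their own. All 10 were on the array, with 26 probe sets between them, and each was read by its brightest probe set. All 10 passed the filter on dim signal, a mean above 33.8 intensity over the arrays, which left 12198 genes for testing. RNA from 3 groups was measured on 1-colour Affymetrix arrays, with 2 arrays a group: low-Myc cells at 0 hours of release, mid-Myc cells at 1 hour and high-Myc cells at 24 hours. All groups came from the same line, carried the same transgene, and each received ERCC synthetic RNAs in proportion to its cell number.

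A cyclin binds a CDK, switches it on and directs it to its substrates. D-type cyclins with CDK4 and CDK6 begin to phosphorylate the retinoblastoma protein in G1, cyclin E with CDK2 completes this and starts DNA synthesis, cyclin A2 with CDK2 and then CDK1 carries cells through S and G2 phase, and cyclin B1 with CDK1 drives mitosis. CDK4 and CCND2 are textbook direct targets of c-Myc, and resting B cells enter the cycle by way of cyclin D2 and D3.

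Differences are log2 values on 2 scales. On the per-cell scale each array was corrected by its ERCC RNAs, so that a value stands for RNA per cell. On the equal-median scale all arrays were given the same median over human probe sets, so that a value stands for a gene relative to the others. A gene was called where the limma p-value, adjusted over all 12198 genes by the method of Benjamini and Hochberg, was below 0.05. Errors are the standard error (SE) of that fit. In high-Myc arrays the median tested gene itself lay 0.97 above low-Myc arrays per cell, and 0.05 above them on the equal-median scale. The 100 ERCC probe sets lay at a median of -0.79 in high-Myc against low-Myc arrays as deposited, and the 55 of them above the filter at -1.25. The correction by them, which changes with intensity, is what separates the scales. The array's 23 background probe sets moved by a median of 0.21 (SD 0.51) per cell in the same comparison. The brightest of them averaged 694 intensity and the second brightest 194, and the background range below is taken to end at 194. All members but CCND2 had low-Myc values under 694, so a limit at 194 does not clear the folds of the others. The MYC probe set averaged 10375 ± 136 intensity on low-Myc arrays, 9986 ± 64.0 on mid-Myc arrays, and 11934 ± 64.4 on high-Myc arrays as deposited (SD, n = 2), so that before scaling it did not follow the labelled order. Between high-Myc and low-Myc arrays it was higher by 0.96 per cell and 0.34 with equal medians. The protocol fields of the mid-Myc samples disagree on the release time (0 hours under growth, 1 hour under treatment), and the treatment field was followed. The mid-Myc arrays have sample numbers far from those of the other arrays. The sources used here do not say whether they were run separately, and such a difference cannot be told apart from 1 hour of release. Of the B-cell markers, 6 were on the array and all 6 were above the filter, led by MS4A1 at 11519 intensity. The summed B-cell marker signal was 23015 to 23182 on low-Myc arrays, 23863 to 24730.4 on mid-Myc arrays, and 15147 to 15306 on high-Myc arrays. The 9 T and NK cell markers together gave 461 to 489.6, 424 to 433 and 353 to 362, with 6 above the filter and CD3D at 19.1, below it. The 6 monocyte markers, 3 of them above the filter, with CD14 at 17.3 below it, summed to 1502 to 1505, 1552 to 1603 and 558 to 587, and the 6 plasma cell markers, all above it, to 1476 to 1503, 1758 to 1774 and 1303 to 1376. Their part in the results was not tested.

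After 24 hours of release, all 10 cyclins and kinases were called higher per cell in high-Myc cells, against low-Myc cells, by 0.79 (CCND3) to 3.25 (CCNE2). Of all tested genes 90.8% were called higher in this comparison and 2.53% lower, so the count is close to the background. The median of the 10 genes was 2.35, against 0.97 over all tested genes. With equal medians 9 of the 10 were called higher and CCND3 was called lower, where 37.7% of all tested genes were called higher and 26.0% lower, and the median of the 10 was 1.29, against 0.05. With quantile normalization or centring on the tested genes 7 were higher and 1 lower, since CDK2 and CCND2 lost the call. Of all genes called with equal medians 59.2% were higher, against 47.2% and 41.5% under these 2 scalings and 46.9% as deposited. The p-values measure the spread between arrays that the design text calls biological duplicates. With 2 arrays on each side no exact permutation p can be below 0.333. In bulk RNA, a larger share of dividing cells and more of an RNA in each dividing cell cannot be told apart.

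**Figure D1:**
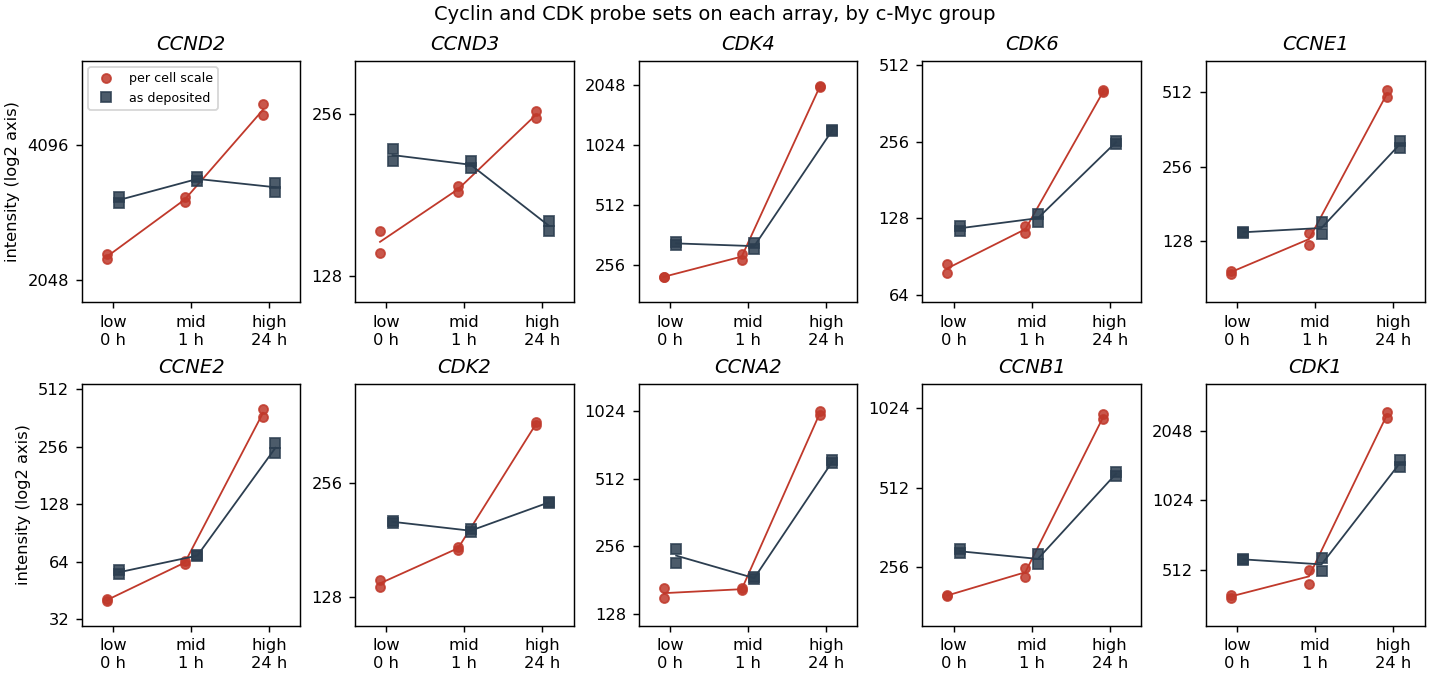
Intensity of the probe set used for each gene on each of the 6 arrays, on log2 axes that differ between panels, at 0, 1 and 24 hours of c-Myc release. Squares are the values as deposited, circles the same arrays on the per-cell scale, and lines join the group means (n = 2). CDK4 and CCNE2 climbed most by 24 hours, while CCND3 fell as deposited and rose per cell.

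Among the G1 kinases, CDK4, the catalytic partner of the D-type cyclins, was, with CCNE2, one of the 2 steepest risers. Its probe set read 334 and 325 intensity on low-Myc arrays, 329.6 and 309 on mid-Myc arrays, and 1223 and 1213 on high-Myc arrays. The high-Myc arrays stood far above all others, which overlapped. The low-Myc values lay above 194 intensity but below the brightest background probe set, at 694, so the size of the fold carries that limit. Per cell CDK4 was higher by 3.17 in high-Myc cells (SE 0.05, 9.02-fold, limma adjusted p = 2.34e-11), and only 145 of the 12198 genes had a larger difference. Relative to other genes, on the equal-median scale, it was higher by 2.03 (SE 0.06, limma adjusted p = 5.66e-12). The other 3 CDK4 probe sets gave 1.82 to 2.36 on that scale. Genes of the same intensity decile had a median of 1.32 per cell and 0.17 with equal medians, both below CDK4.

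CDK6, the other D-type cyclin kinase and a prominent one in blood cells, changed less. It was at 114 and 119.7 intensity on low-Myc arrays, 133 and 124 on mid-Myc arrays, and 258 and 252 on high-Myc arrays. The groups did not overlap, although low-Myc and mid-Myc arrays lay close together. Its rise at 24 hours was 2.32 per cell (SE 0.07, limma adjusted p = 8.48e-10) and 1.26 on the equal-median scale (SE 0.08, limma adjusted p = 3.71e-09). The 2 further CDK6 probe sets above the filter gave 1.19 and 0.86 on the latter scale.

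The promoter of CDK4 is shown because it carries 3 copies of CACGTG, the E-box sequence that c-Myc binds together with its partner MAX. The copies, in capitals, begin 216, 196 and 101 bases before the annotated start, in the 250 bases before it on the minus strand (chr12:57752311-57752560, GRCh38.p14, RefSeq).
CDK4: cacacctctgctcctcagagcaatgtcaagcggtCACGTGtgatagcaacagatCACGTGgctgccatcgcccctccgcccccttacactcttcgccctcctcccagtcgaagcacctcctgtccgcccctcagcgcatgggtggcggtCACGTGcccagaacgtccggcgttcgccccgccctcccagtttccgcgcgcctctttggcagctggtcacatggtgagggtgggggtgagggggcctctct
Among the 35116 such windows at hand, 6.34% held CACGTG at least once, a word that reads the same on both strands, and 28 windows, 0.0797%, held it 3 times or more. Windows were at hand for 7 of the 10 genes: CCNA2, CCNB1, CCND3, CCNE1, CDK1, CDK4 and CDK6. Besides CDK4, CCNB1 had 1 CACGTG. A match describes these letters and does not show binding.

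The D-type cyclins, which carry growth signals to CDK4 and CDK6, behaved unlike their kinases. CCND2 was by far the brightest probe set of the 10, at 3130.2 and 3043 intensity on low-Myc arrays, 3470.0 and 3404 on mid-Myc arrays, and 3214 and 3373 on high-Myc arrays. The high-Myc arrays lay between the other groups. Its per-cell rise at 24 hours was 1.08 (SE 0.04, 2.12-fold, limma adjusted p = 1.27e-09), close to the median of 0.97 for genes of its decile. The difference of 0.23 on the equal-median scale (SE 0.04, limma adjusted p = 0.000315) turned to -0.067 with quantile normalization and was 0.03 after centring on the tested genes, neither of them called, so its direction relative to other genes was not settled. The other CCND2 probe set above the filter gave 1.31 per cell and 0.21 with equal medians.

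CCND3 was the member that stood apart. It read 209 and 220.2 intensity on low-Myc arrays, 209 and 203 on mid-Myc arrays, and 162 and 155 on high-Myc arrays, with the high-Myc arrays below all others. Relative to other genes it fell by 0.30 in high-Myc against low-Myc cells on the equal-median scale (SE 0.07, limma adjusted p = 0.00241), and by 0.26 to 0.50 under all 17 alternatives, each of them called. Per cell the same arrays gave 259 and 251 in high-Myc cells, against 141 and 155 in low-Myc cells, a rise of 0.79 (SE 0.07, limma adjusted p = 1.85e-06) that was below the 1.26 of its intensity decile. On high-Myc arrays CCND3 lay within the range of the background probe sets, the second brightest of which was at 194 intensity. The size of its change is therefore not settled. The only other CCND3 probe set, at 13.4 intensity, was below the filter. Cyclin D1 (CCND1), the D-type cyclin of many other tissues, lay at 30.5 intensity, below the filter, and was not tested.

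Of the E-type cyclins, the partners of CDK2 at the start of DNA synthesis, CCNE2 had the largest difference of the 10 genes and CCNE1 lay near their median. CCNE2 read 58.1 and 55.0 intensity on low-Myc arrays, 68.5 and 69.6 on mid-Myc arrays, and 267 and 239 on high-Myc arrays. The groups did not overlap, and both mid-Myc arrays already lay above both low-Myc arrays. Its rise at 24 hours was 3.25 per cell (SE 0.09, limma adjusted p = 2.44e-10) and 2.30 on the equal-median scale (SE 0.09, limma adjusted p = 7.56e-11), and 99 of 12198 genes had a larger difference on the latter. In the low-Myc arrays CCNE2 lay within the range of the background probe sets, the second brightest of which was at 194 intensity, so the size of its fold is not settled. The dimmer CCNE2 probe set, at 47.1 intensity, gave 1.73 per cell and 1.02 with equal medians. Both values are below those of CCNE1, so the rank of CCNE2 rests on 1 probe set.

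CCNE1 read 139.7 and 138 intensity on low-Myc arrays, 137 and 153 on mid-Myc arrays, and 305 and 324 on high-Myc arrays. Low-Myc and mid-Myc arrays overlapped and the high-Myc arrays lay above them. It rose by 2.39 per cell at 24 hours (SE 0.08, 5.25-fold, limma adjusted p = 8.32e-10) and by 1.32 on the equal-median scale (SE 0.08, limma adjusted p = 6.62e-09). CCNE1 and CDK6 were also below 194 intensity in the low-Myc arrays, with the same limit on their folds.

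CDK2, the kinase these cyclins activate, differed less between groups. It read 202 and 203 intensity on low-Myc arrays, 194 and 189.9 on mid-Myc arrays, and 227 and 228 on high-Myc arrays. The high-Myc arrays were the highest, by a small margin. The difference between high-Myc and low-Myc cells was 1.40 per cell (SE 0.06, limma adjusted p = 7.78e-09), near the 1.26 of its decile. Relative to other genes it was 0.31 (SE 0.07, limma adjusted p = 0.00136), with 0.12 (adjusted p = 0.103) under quantile normalization and 0.10 (adjusted p = 0.144) after centring on the tested genes. Both further CDK2 probe sets had the same sign, at 0.27 and 0.18.

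**Figure D2:**
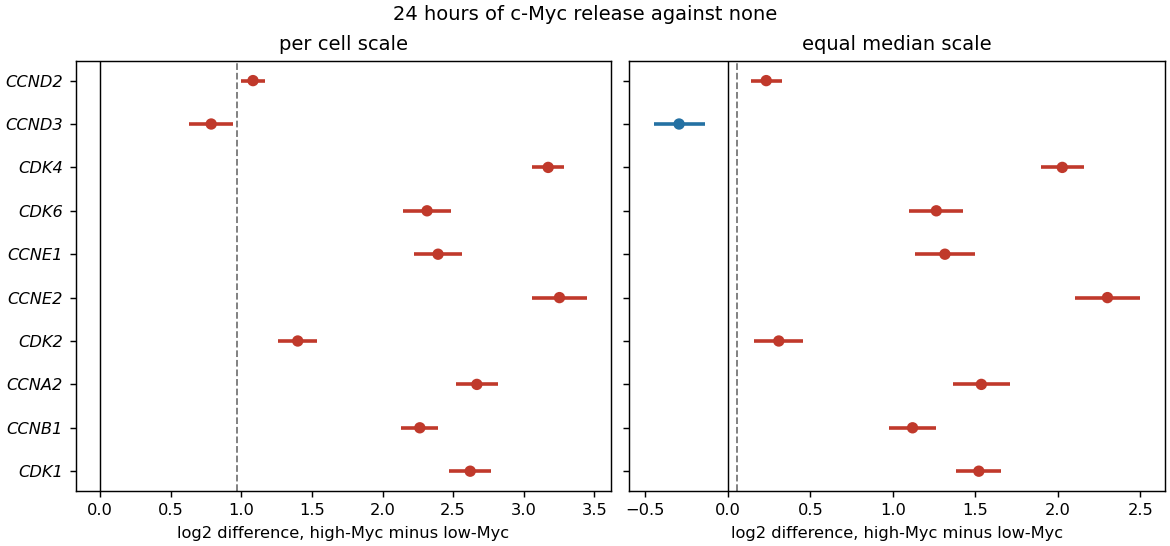
Log2 difference of high-Myc minus low-Myc arrays for each gene on the per-cell scale (left) and the equal-median scale (right), with the 95% confidence interval of the limma fit (2 arrays a group). Red is called higher, blue called lower, and the dashed line is the median of all 12198 tested genes. CDK4 and CCNE2 lie farthest right on both scales, CCND2, CCND3 and CDK2 lie nearest the dashed line, and the sign of CCND2 on the equal-median scale turned with quantile normalization.

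The cyclins and the kinase of S phase, G2 and mitosis rose by 2.26 to 2.67 per cell. CCNA2, which serves CDK2 and CDK1, read 249 and 216 intensity on low-Myc arrays, 182 and 186 on mid-Myc arrays, and 601 and 619 on high-Myc arrays. The mid-Myc arrays were the lowest and the high-Myc arrays the highest. Its rise in high-Myc against low-Myc cells was 2.67 per cell (SE 0.06, limma adjusted p = 1.5e-10) and 1.54 on the equal-median scale (SE 0.08, limma adjusted p = 8.15e-10). The other CCNA2 probe set gave 2.59 and 1.64.

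CDK1, the kinase of mitosis, read 567 and 568 intensity on low-Myc arrays, 576 and 503 on mid-Myc arrays, and 1530.3 and 1429 on high-Myc arrays. Low-Myc and mid-Myc arrays overlapped, and the high-Myc arrays stood apart. It rose by 2.62 per cell (SE 0.07, limma adjusted p = 1.77e-10) and by 1.52 on the equal-median scale (SE 0.06, limma adjusted p = 1.08e-10). A second CDK1 probe set above the filter gave 2.74 and 1.63.

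CCNB1, which activates CDK1 for mitosis, read 298 and 287 intensity on low-Myc arrays, 285 and 263 on mid-Myc arrays, and 569 and 586 on high-Myc arrays. It had a single probe set, and its high-Myc arrays lay above all others. It rose by 2.26 per cell (SE 0.06, limma adjusted p = 2.05e-10) and by 1.12 on the equal-median scale (SE 0.07, limma adjusted p = 3.47e-09).

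The promoters of these 3 genes are shown together because genes of G2 and mitosis are known to share CCAAT boxes, read by the factor NF-Y, and the CHR element. Only the CHR form TTTGAA was searched, so a promoter without a match may still hold another form. Capitals mark matches on either strand: the CCAAT box, which reads ATTGG on the other strand, the CHR element, the E-box named above, and any of the E2F words TTTCCCGC, TTTCGCGC, TTTGGCGC and TTTGCCGC. Each is the 250 bases before an annotated start (GRCh38.p14, RefSeq): chr4:121823884-121824133 on the minus strand for CCNA2, chr10:60778228-60778477 on the plus strand for CDK1 and chr5:69166900-69167149 on the plus strand for CCNB1.
CCNA2: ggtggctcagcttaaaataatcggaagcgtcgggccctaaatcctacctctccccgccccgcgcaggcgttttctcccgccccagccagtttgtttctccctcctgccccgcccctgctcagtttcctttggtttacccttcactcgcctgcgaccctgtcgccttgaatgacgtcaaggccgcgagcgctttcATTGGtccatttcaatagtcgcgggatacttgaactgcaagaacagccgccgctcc
CDK1: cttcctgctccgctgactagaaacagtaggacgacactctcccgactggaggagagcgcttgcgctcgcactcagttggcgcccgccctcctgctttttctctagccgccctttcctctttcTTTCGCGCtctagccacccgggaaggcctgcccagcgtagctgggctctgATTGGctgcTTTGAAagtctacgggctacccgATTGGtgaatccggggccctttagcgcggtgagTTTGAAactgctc
CCNB1: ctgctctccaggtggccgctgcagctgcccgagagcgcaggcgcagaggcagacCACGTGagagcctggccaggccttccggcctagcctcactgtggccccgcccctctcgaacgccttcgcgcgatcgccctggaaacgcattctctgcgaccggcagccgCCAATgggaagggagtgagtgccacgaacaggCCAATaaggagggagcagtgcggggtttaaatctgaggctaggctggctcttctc
CCNA2 had 1 CCAAT box, 56 bases before the start, and CCNB1 had 2, at 87 and 55 bases. This CDK1 start, the downstream of its 2 annotated starts, had CCAAT boxes at 78 and 46 bases, the CHR element at 69 and 13 bases and the E2F word TTTCGCGC at 128 bases. The upstream CDK1 start, not shown, held fewer matches: 1 CCAAT box at 150 bases, 1 CHR element at 161 bases and no E2F word. No matches overlapped one another. Of all 35116 windows 32.0% held a CCAAT box, 13.3% the CHR form TTTGAA and 2.79% an E2F word on either strand. The windows of CCNE1 and CDK6 held none of these words, and 2 of the 3 CCND3 windows held 1 CCAAT box each.

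After 1 hour of release the cyclins and kinases were nearly level with other genes. Per cell 9 of 10 were called higher in mid-Myc cells, against low-Myc cells, where 62.4% of all tested genes were called higher and 0.697% lower. The median of the 10 was 0.33, against 0.30 over all tested genes. With equal medians 3 were called higher, CCNE2, CCND2 and CDK6, where 25.7% of all tested genes were called higher and 3.39% lower, and the median was 0.10, against 0.09. Of the genes called on that scale 88.3% were higher, against 44.4% with quantile normalization, 43.2% as deposited, 50.5% with cyclic loess and 58.6% after centring on the tested genes. Of the 10 members 1 was then higher and 1 lower (quantile and cyclic loess), or 2 higher and 1 lower (as deposited and tested genes), the lower one being CCNA2. This comparison shares its low-Myc arrays with the one at 24 hours, so the 2 sets of values are not independent.

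**Figure D3:**
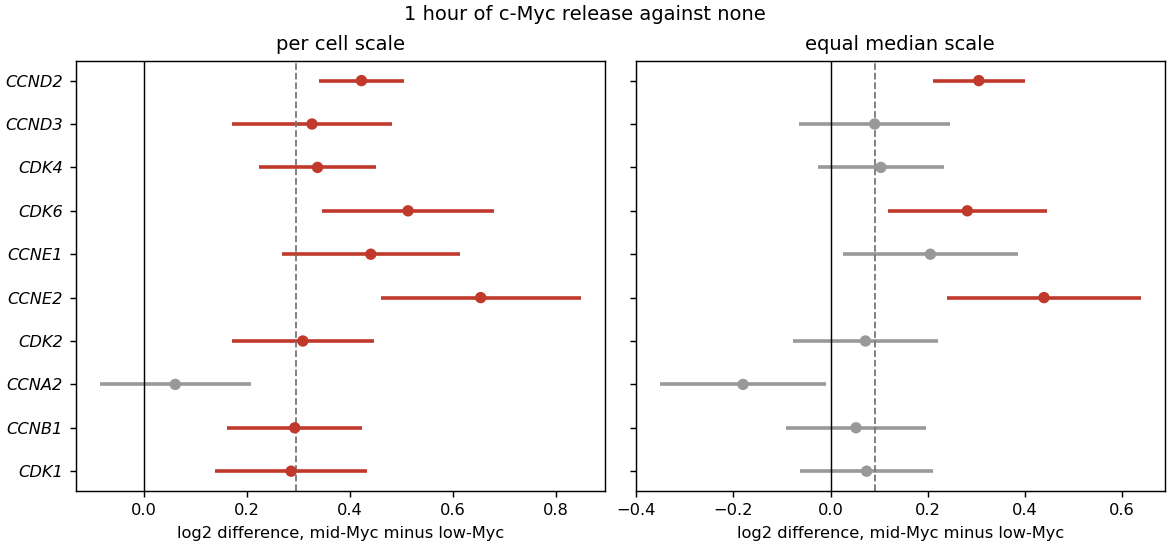
Log2 difference of mid-Myc minus low-Myc arrays for each gene on the per-cell scale (left) and the equal-median scale (right), with the 95% confidence interval of the limma fit (2 arrays a group). Red is called higher, grey not called, and the dashed line is the median of all tested genes. CCNE2 lies farthest right and CCNA2 farthest left, and on the equal-median scale the signs of CCND3, CDK4, CDK2, CCNB1 and CDK1 turned with other scalings.

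CCNE2 had the largest 1-hour difference of the 10, at 0.65 per cell (SE 0.09, limma adjusted p = 0.000145) and 0.44 on the equal-median scale (SE 0.09, limma adjusted p = 0.003). Its other probe set went the other way, at -0.12 and -0.29, and with the mean of both the equal-median value was 0.08 (adjusted p = 0.543). CCND2 was higher by 0.42 per cell (SE 0.04, limma adjusted p = 1.76e-05) and by 0.31 on the equal-median scale (SE 0.04, limma adjusted p = 0.00022). The latter was 0.08 (adjusted p = 0.14) with quantile normalization and 0.09 (adjusted p = 0.116) with cyclic loess. CDK6 was higher by 0.51 per cell (SE 0.07, limma adjusted p = 0.000256) and by 0.28 on the equal-median scale (SE 0.08, limma adjusted p = 0.0131). The equal-median call of CDK6 was lost without low-Myc replicate 1 (0.25, adjusted p = 0.0637), without mid-Myc replicate 1 (0.25, adjusted p = 0.0833) with each other scaling (0.13 to 0.18) and with the mean of its probe sets (0.087, adjusted p = 0.474). The 2 further CDK6 probe sets were at 0.02 and -0.05.

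CCNA2 was the member not called per cell at 1 hour. It stood at 0.06 (limma adjusted p = 0.441, 95% confidence interval -0.09 to 0.21), where genes of its decile had a median of 0.37, and 10419 of 12198 genes had a larger difference. It was at -0.18 on the equal-median scale (limma adjusted p = 0.108, interval -0.35 to -0.01), and it was called lower with quantile normalization (-0.31), cyclic loess (-0.31), centring on the tested genes (-0.30) and the values as deposited (-0.33), and without low-Myc replicate 2 (-0.29). The other CCNA2 probe set gave 0.30 per cell and 0.09 with equal medians, so the 2 probe sets disagreed, and with their mean CCNA2 was called higher per cell (0.18, adjusted p = 0.0253). The mid-Myc values of CCNA2, 182 and 186 intensity, lay within the background range, as did those of CDK2. The sizes of their 1-hour changes are therefore not settled.

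CDK4, CDK1, CCNB1, CDK2 and CCND3 were called per cell at 1 hour with differences of 0.29 to 0.34, but none of them was called by limma on the equal-median scale. There their values were 0.05 (CCNB1, adjusted p = 0.6) to 0.10 (CDK4, adjusted p = 0.22), and all 5 were below 0 with quantile normalization, cyclic loess, centring on the tested genes and the values as deposited. CDK4 had an interval of -0.03 to 0.23 on the equal-median scale. CCNE1 was higher per cell (0.44, SE 0.08, limma adjusted p = 0.00077) and at 0.21 on the equal-median scale (limma adjusted p = 0.0823). Over the 17 alternatives on the latter scale it ran from 0.055 to 0.30, the highest value being that without mid-Myc replicate 1.

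Between 1 and 24 hours all 10 genes were called higher per cell in high-Myc cells, against mid-Myc cells, where 81.7% of tested genes were called higher and 6.57% lower. Their median was 1.96, against 0.72 over all tested genes. With equal medians 8 were called higher and CCND3 lower, where 33.3% of tested genes were called higher and 30.9% lower. CDK4 (1.92, SE 0.06), CCNE2 (1.86, SE 0.09) and CCNA2 (1.72, SE 0.08) led on that scale, with limma adjusted p of 8.57e-12, 5.58e-10 and 2.88e-10. CCND3 fell by 0.39 (SE 0.07, limma adjusted p = 0.00029), and CCND2 was at -0.07 (limma adjusted p = 0.165, interval -0.17 to 0.02). Quantile normalization (-0.15) and centring on the tested genes (-0.16) called CCND2 lower too. This comparison shares arrays with both others.

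Close relatives within the family were compared within the same arrays. The difference between 2 genes' changes was taken from their log2 ratio within each array as deposited, which a single factor per array cannot move. In high-Myc against low-Myc arrays CDK4 changed by 0.76 more than CDK6 (SD between arrays 0.05), CDK1 by 1.21 more than CDK2 (SD 0.05) and CCND2 by 0.53 more than CCND3 (SD 0.09). CCNE2 changed by 0.98 more than CCNE1 (SD 0.13) by its brighter probe set, but the other CCNE2 probe set, at 1.02 with equal medians against 1.32 for CCNE1, turns that direction, and both genes were within the background range on low-Myc arrays. In each pair the high-Myc arrays did not overlap the low-Myc arrays, but with 2 arrays a group no exact permutation p can be below 0.333. The CCND2 and CCND3 difference was 0.30 on the per-cell scale, which corrects bright and dim probe sets differently. In mid-Myc against low-Myc arrays the changes differed by 0.21 for CCND2 against CCND3 (SD 0.06), 0.23 for CCNE2 against CCNE1 (SD 0.08), -0.18 for CDK4 against CDK6 (SD 0.05) and 0.0024 for CDK1 against CDK2 (SD 0.08), and the groups overlapped in the last pair. The first was 0.10 per cell, 0.12 with quantile normalization and 0.11 with cyclic loess. The CCNE2 and CDK6 values there rest on 1 probe set each: with the other CCNE2 probe set (-0.29 with equal medians, against 0.21 for CCNE1) and the other CDK6 probe sets (0.02 and -0.05, against 0.10 for CDK4) the direction turns. These 4 pairs were chosen by kinship with the results known.

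**Figure D4:**
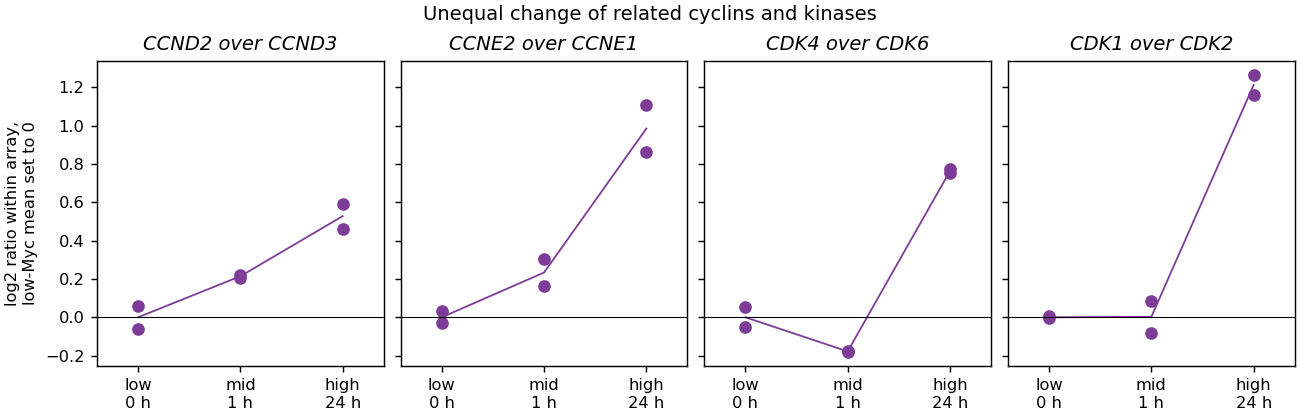
Log2 ratio of 2 related genes within each array as deposited, at 0, 1 and 24 hours, with the low-Myc mean of each pair set to 0. Points are the 6 arrays and lines join the group means (n = 2). By 24 hours the plotted ratios were up by 0.53 (CCND2 over CCND3) to 1.21 (CDK1 over CDK2), and the direction of CCNE2 over CCNE1 turns with the other CCNE2 probe set.

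The regulators around these kinases were counted from lists drawn up with earlier results of these data known. Their counts at 24 hours stand beside the 90.8% of all tested genes called higher and 2.53% lower per cell, and the 37.7% higher and 26.0% lower with equal medians, so that a list called higher throughout per cell is near the background. Of the partners and activators of CDKs, all 7 were called higher per cell at 24 hours, and 6 higher and 1 lower on the equal-median scale, with a median of 0.57. CDC25A, the phosphatase that removes the inhibitory phosphates of CDK2, rose by 3.58 per cell (SE 0.07, limma adjusted p = 4.96e-11) and by 2.52 on the equal-median scale (SE 0.07, limma adjusted p = 5.74e-12). CDC25A read 93.5 and 95.1 intensity on low-Myc arrays, 92.1 and 88.1 on mid-Myc arrays, and 483 and 500.3 on high-Myc arrays. The low-Myc values lay within the background range, so the size of its fold is not settled. CKS1B and CKS2, small subunits of CDK complexes, rose by 1.71 and 0.63 on the equal-median scale, and CDC37, a chaperone that loads CDK4 onto HSP90, by 0.57. CDC37 had reached 0.56 at 1 hour (SE 0.07, limma adjusted p = 5.38e-05). The kinases that put the inhibitory phosphates on, WEE1 and PKMYT1, were also higher at 24 hours, by 1.09 and 0.62 on the equal-median scale. At 1 hour WEE1 was lower on that scale (-0.28, SE 0.06, limma adjusted p = 0.00306), but per cell it was not called (-0.09, limma adjusted p = 0.112).

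CDK inhibitors were split. Of 8 listed, 7 were on the array and 6 passed the filter, and CDKN2C was not analysed here. At 24 hours 4 were called higher and 2 lower per cell (90.8% and 2.53% over all tested genes), and 2 higher and 3 lower on the equal-median scale (37.7% and 26.0%). CDKN2D (p19INK4d), an inhibitor of CDK4 and CDK6, read 517 and 486 intensity on low-Myc arrays, 567 and 597 on mid-Myc arrays, and 116 and 123 on high-Myc arrays. CDKN2D fell by 0.78 per cell (SE 0.06, limma adjusted p = 5.4e-07) and by 1.92 on the equal-median scale (SE 0.07, limma adjusted p = 4.43e-11) at 24 hours, while at 1 hour it was higher by 0.37 on the equal-median scale (limma adjusted p = 0.00205). The high-Myc values of CDKN2D lay within the background range, so the size of its fall is not settled. CDKN1C (p57), which binds several CDKs, was called lower per cell and with equal medians. CDKN1C read 131 and 128 intensity on low-Myc arrays, 166 and 156 on mid-Myc arrays, and 39.9 and 33.1 on high-Myc arrays, all within the background range and the last close to the filter, so the size of its fall is not settled. CDKN2A, the gene of p16INK4a, was higher by 2.08 per cell and 1.03 with equal medians, and CDKN3, a phosphatase that acts on CDKs, by 1.43 per cell. The 0.34 of CDKN3 on the equal-median scale was 0.23 (adjusted p = 0.151) without low-Myc replicate 2 and 0.13 to 0.22, not called, with each other scaling.

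Pocket proteins, the targets of cyclin D and E kinases, and E2F factors were called higher per cell in all 13 cases, near the 90.8% of all tested genes. With equal medians 11 were called higher and 2 lower, with a median of 0.79. The 2 lower genes were pocket proteins: RB1, the gene of the retinoblastoma protein (-0.64, SE 0.06, limma adjusted p = 6.3e-07), and RBL2 (-0.63, SE 0.08, limma adjusted p = 5.82e-06). The pocket protein RBL1 was called higher (0.79, SE 0.14, limma adjusted p = 0.000149). The E2F factors E2F8, E2F2, E2F7 and E2F6 were higher there by 1.63, 1.18, 1.15 and 1.13. Of 23 genes of cyclin turnover, all 23 were called higher per cell, again near the background of 90.8%, and 17 higher and 1 lower on the equal-median scale (median 0.76). ANAPC1, a subunit of the complex that marks cyclins A and B for destruction, was higher there by 1.41, and UBE2S, a ubiquitin enzyme of that complex, by 1.10. FBXO5, an inhibitor of the complex, was also called higher. SKP2, which targets the CDK inhibitor p27, was higher by 1.32 at 24 hours and by 0.90 at 1 hour (SE 0.12, limma adjusted p = 0.000145), although its 34.3 and 39.6 intensity in low-Myc arrays were near the filter. Of 12 proliferation genes 11 were called higher on the equal-median scale and none lower, with RRM1, RRM2, BUB1B and TYMS at 1.89, 1.86, 1.69 and 1.62. The low-Myc values of CCNF, CDKN2A, E2F2, E2F6, E2F7, E2F8, SKP2 and BUB1B were below 194 intensity too, so the sizes of their folds carry the same limit.

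Among the other cyclins and CDKs, most of which serve transcription, 24 of 26 tested genes were called higher per cell and none lower at 24 hours. With equal medians 10 were higher and 11 lower, and the median of 0.02 was near the 0.05 of all tested genes. CDK19 and CDK8, paralogous kinases of the Mediator complex, lay on opposite sides, at -1.17 and 0.86 on that scale. The high-Myc values of CDK19, 110 and 122 intensity, lay within the background range, so the size of its fall is not settled. CCNL1, a cyclin tied to splicing, was at -1.08, and CCNG2, a cyclin linked to cell cycle arrest, at -0.88. Per cell CCNL1 and CDK19 were not called (both -0.08, with adjusted p of 0.0764 and 0.294). Of the other cell cycle cyclins, CCNB2 and CCNF passed the filter and both were higher, by 0.86 and 0.90 on the equal-median scale, and CCNA1 and CCNB3, at 17.2 and 14.6 intensity, did not pass it.

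**Figure D5:**
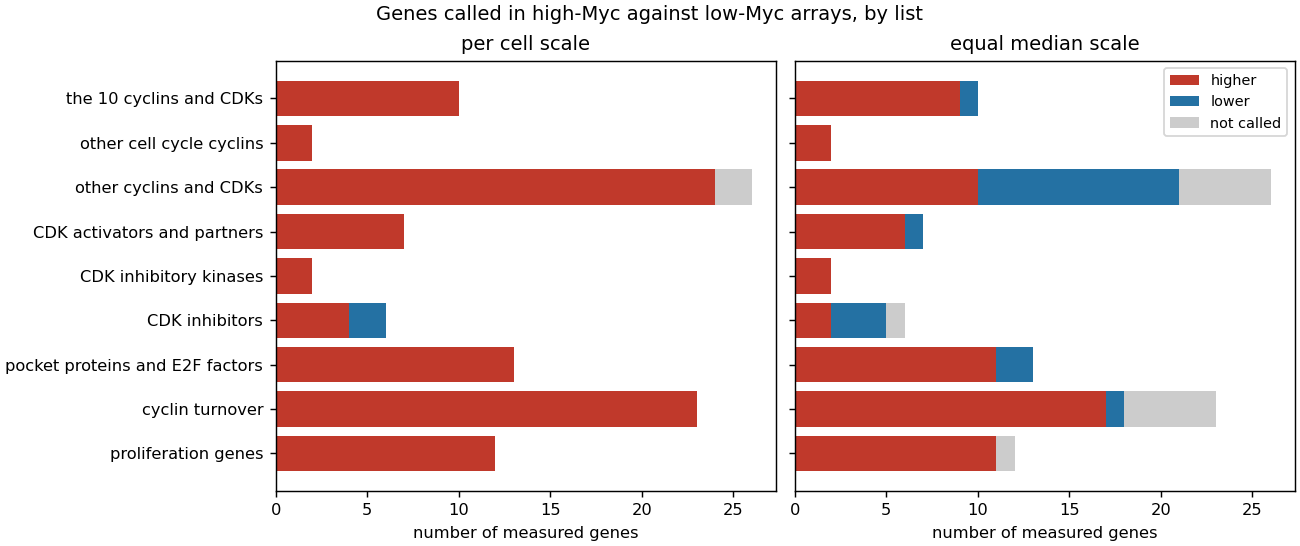
Number of tested genes called higher (red), called lower (blue) and not called (grey) in high-Myc against low-Myc arrays, for the 10 cyclins and CDKs and each list of related genes, per cell (left) and on the equal-median scale (right). Blue bars appear for CDK inhibitors alone on the left (2 of 6), and are longest for the other cyclins and CDKs on the right (11 of 26).

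The genes whose profiles lay nearest were found by the distance between log2 values over the 6 arrays on the equal-median scale, each gene centred on its own mean. Nearest to CDK4 were ATIC, an enzyme of purine synthesis (distance 0.06 log2), and EARS2, a mitochondrial glutamyl-tRNA synthetase (0.07). ATIC rose by 2.08 at 24 hours on that scale, against 2.03 for CDK4. CCNE1 lay nearest to ANKS6 (0.08) and DONSON, a replication factor (0.09). CCNB1 lay nearest to the checkpoint kinase CHEK2 (0.07) and TIMM44 of the mitochondrial import machinery (0.07), CCNA2 to RAD1, a DNA damage clamp subunit (0.13), and KNOP1 (0.14). The remaining nearest pairs were PRDX4 and RPP40 for CCNE2, NT5DC2 and TMEM250 for CDK1, ZRANB2 and CACUL1 for CDK2, CCDC167 and MBD3 for CDK6, WARS1 and DLST for CCND2, and PPP6R2 and AKT1S1 for CCND3, at distances of 0.03 to 0.17. Within the family the closest profiles were CCNE1 and CDK6 (0.25) and CCNB1 and CDK6 (0.25). These likenesses rest on 6 arrays in 3 groups and are a description.

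Further probe sets checked the choice of the brightest. Of the 11 further probe sets above the filter, in 7 genes, all 11 had the sign of the one used in high-Myc against low-Myc arrays on both scales. In mid-Myc against low-Myc arrays 10 of 11 did per cell, and 6 of 11 on the equal-median scale.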

How the data were processed

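RNA of 6 P493-6 samples was read on 1-colour Affymetrix arrays. The authors deposited probe set intensity values on a linear scale, summarised with MAS5 per the submitters' processing notes, with version and scaling target not given in the sources used here. Of 49495 probe sets in the table, 49293 were human, 100 ERCC and 102 other controls. Of the human probe sets 45278 had 1 gene symbol, 1333 several and 2682 none listed, and 45208 of those with 1 symbol were found by Entrez ID.

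Values were taken as log2. For the per-cell scale, the deviation of the 100 ERCC probe sets from their 6-array mean was smoothed in each array by robust loess (span 0.7, degree 1) and taken off all probe sets. For the equal-median scale the median over human probe sets was taken off. Each gene was read by its brightest probe set and tested above the 40th percentile of human probe sets. Tests used limma 3.58.1 in R 4.3.3, as a single model of all 6 arrays with the trend option of eBayes. Its two-sided p-values were adjusted by Benjamini and Hochberg. On simulated data, limma was run with changes planted in the high-Myc arrays alone. The per-cell curve was checked only on the ERCC probe sets it was fitted to, which cannot show its effect on human probe sets. The 1-hour comparison and the other scalings were not simulated. The table holds no detection calls, and the number of arrays limits the precision.

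The members, lists, tests and rule for named genes (all members, up to 4 genes of each list with the largest equal-median change at 24 hours, and the 2 nearest profiles of each member) were chosen with earlier results of these data known. RB1, RBL1 and RBL2 were named outside that rule. CDKN2C was not analysed here. The alternatives were no filter, a 60th percentile filter, the mean of a gene's probe sets, log2(value + 16), no variance trend, a block for the replicate number, only the groups compared, other scalings, and the omission of each array. Those of the within-array ratios were added after seeing the data. Promoter sequences are RefSeq's (GRCh38.p14). The files give no coordinates of their own.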

Additional observations from a re-analysis of the deposited data

How the results depend on the processing

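With 2 arrays a group and no detection calls, differences of the size of the 1-hour values are near the limit of these arrays. The replicate numbers shared only a number: the deviations of same-numbered arrays correlated at -0.00337 to 0.00221 between groups, and with the replicate block the numbers of members called were 10, 9 and 10 per cell (24 hours against 0, 1 against 0, 24 against 1) and 10, 3 and 9 on the equal-median scale, as without it. Of the recomputed counts of members called, higher and lower added together, 95 stayed within 1.5 times and 1 did not. The exception was mid-Myc against low-Myc on the equal-median scale, where the mean of a gene's probe sets left 1 of 3. With each array left out in turn that count ran from 2 (without low-Myc replicate 1) to 4 (without low-Myc replicate 2). The 4 include CCNA2 on the lower side, at -0.29. Quantile normalization and cyclic loess gave 1 higher and 1 lower (CCNA2) in place of 3 higher, which the added count does not show. Other scalings moved the median of all tested genes by up to -0.20 (centred on the tested genes, high-Myc against low-Myc) and -0.15 (values as deposited, mid-Myc against low-Myc) on the equal-median scale, and by 0.29 per cell with one factor per array. Without a variance trend, limma called 2149 of 12198 genes higher in mid-Myc against low-Myc arrays on the equal-median scale, against 3139 with it; without low-Myc replicate 2 it called 1895 and without mid-Myc replicate 2 1942, and with quantile normalization, values as deposited, centring on the tested genes and cyclic loess 955, 1131, 1527 and 1053.

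In mid-Myc against low-Myc arrays on the equal-median scale, 5 members changed sign. CCND3 was at -0.036, -0.059, -0.024 and -0.018 with quantile normalization, values as deposited, centring on the tested genes and cyclic loess, in that order. In the same order CCNB1 was at -0.094, -0.098, -0.063 and -0.087, CDK1 at -0.089, -0.076, -0.041 and -0.096, CDK2 at -0.054, -0.078, -0.043 and -0.041, and CDK4 at -0.042, -0.046, -0.011 and -0.050. With arrays left out in turn CDK1 ran from -0.0066 (without mid-Myc replicate 1) to 0.15 (without mid-Myc replicate 2), and CCNA2 per cell from -0.015 (without low-Myc replicate 2) to 0.14 (without low-Myc replicate 1). CCND2 was at -0.067 in high-Myc against low-Myc arrays with quantile normalization and at 0.00086 in high-Myc against mid-Myc arrays with cyclic loess. In high-Myc against low-Myc arrays per cell, CCNL1 was at 0.20 with the mean of its probe sets, 0.13 with one factor per array and 0.052 with a loess span of 0.4, and CDK19 at 0.038 with one factor per array. With the mean of their probe sets DLST was at -0.083 and AKT1S1 at 0.0072 on the equal-median scale. Of the recomputed differences between paired genes, 95 moved by less than the spread between arrays and 13 by more. The sign of CDK1 against CDK2 in mid-Myc against low-Myc arrays (0.0024) was not scored, since it was smaller than the spread. That sign turned per cell, where CDK1 rose by 0.286 and CDK2 by 0.309. The 13 that moved by more kept their sign. For CCND2 against CCND3 these were 0.30 (per cell) and 0.40 (quantile) in high-Myc against low-Myc arrays, 0.10 to 0.12 in mid-Myc against low-Myc arrays, and 0.20 (per cell) and 0.39 (cyclic loess) in high-Myc against mid-Myc arrays. For CDK4 against CDK6 they were 0.86 (per cell), -0.23 (cyclic loess) and 0.96 to 1.03 in the same order of comparisons, and for CCNE2 against CCNE1 0.32 (quantile) in mid-Myc against low-Myc arrays. The cause was not tested.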
